A study of Homo sapiens with 48 samples.

Results

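Huh7 cells transfected with the INTG siRNA were compared with Huh7 cells that received either of the negative control siRNAs NC1 and NC2. The samples were chosen by their titles, which give the cell line, the siRNA, the experiment and the well, and they make up 24 of the 48 arrays of the series. Huh7 is an established human hepatoma line, and the remaining 24 arrays hold the same design in the monocytic leukaemia line THP1. INTG targets an intergenic transcript of the stretch that separates TRAF1 from C5. NC1 and NC2 are commercial non-targeting siRNAs of the Silencer Select series. All 3 groups were unmodified Huh7 cells that went through the same transfection, with 300000 cells and 50 pmol siRNA per well, Lipofectamine 2000 as the carrier and collection after 2 days. No untransfected cells were among them, so each comparison is between siRNAs. The experiments numbered 1 to 4 each used a separate culture passage, with 2 wells per siRNA, which gives 8 arrays per group. The wells of an experiment were averaged, and n is 4 experiments in each group throughout.

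An siRNA is loaded into an Argonaute protein, which keeps the strand complementary to the target and uses it to find and cut matching RNA. The same strand can also lower other transcripts through matches of its seed, the bases near its 5′ end, in the manner of a microRNA. C5 encodes a complement component made by hepatocytes and TRAF1 an adaptor of the TNF receptor family. The targeted transcript has no named probe on this array, so its own knockdown is not analysed here, and the comparison describes what followed the siRNA and not a measured loss of its target. The siRNA is shown because every result below is a contrast between it and the controls. The first line gives the target as the labels state it and the second the complementary strand, both 5′ to 3′, with the seed (bases 2 to 8 of the complementary strand) and its match in capitals.
INTG target: aactacgtgaagaGGCCTCTg
Complementary strand: cAGAGGCCtcttcacgtagtt
None of the 2545 mature human miRNAs in the RefSeq table (0) carried the same bases 2 to 8, and 0 of 35116 RefSeq promoter windows of GRCh38.p14 held the whole target on either strand. Matches of the seed in transcripts were not read here. The labels give no sequence for the control siRNAs.

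Total bead signal per array averaged 240.6 to 396.8 over probes, and 11510 to 13977 probes per array were detected at a detection p-value under 0.01. Duplicate wells correlated at 0.985 or more. INTG arrays were dimmer than the mean of the controls in experiments 2, 3 and 4 (ratios of mean signal 0.798, 0.738 and 0.819) and not in experiment 1 (1.02). In experiment 4 the NC2 arrays (274.8) were close to INTG (264.7) and the NC1 arrays were brighter (371.8). Experiments 1 and 2 shared a slide, and so did experiments 3 and 4, each with all 3 siRNAs. Within every experiment the INTG arrays followed those of both controls on the slide, so an effect of this order and one of the siRNA cannot be told apart. In cultures measured in bulk, fewer cells of a kind and less RNA per cell cannot be told apart either. Of 16 hepatocyte and hepatoma markers 16 were detected, with albumin (ALB) at a mean level of 14.79 on the log2 scale and alpha-fetoprotein (AFP) at 14.12. The summed signal of these markers ran from 132700 to 182000 with NC1, 132400 to 188300 with NC2 and 128600 to 180000 with INTG. Of 9 myeloid markers, PTPRC, SPI1, ITGAM, CSF1R, TYROBP, FCER1G and MPO were detected on 0 arrays. CD14 and LYZ were detected on all 24, and they moved in opposite directions with INTG (-0.76 and 0.55 against the mean of the controls, limma, Benjamini-Hochberg adjusted p = 9.74e-05 and 0.000368). Their part in the other results was not tested.

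Levels are log2 signals after background correction and quantile normalization, and a change is the INTG level minus the mean of NC1 and NC2 within an experiment, averaged over the 4 experiments, unless a single control is named. Changes were called at a Benjamini-Hochberg adjusted p under 0.05 in limma with the experiment as a block. Of 13878 probes tested, 3089 were called (22.3%), 1430 of them higher with INTG (10.3%) and 1659 lower (12%). Against NC1 and NC2 singly, 1556 probes were called on the same side of both (11.2%), 570 higher (4.11%) and 986 lower (7.1%). Another 3 probes passed against both controls in opposite directions. At the gene level, read with 1 probe per gene, 1139 of 9342 measured genes rose (12.2%) and 1298 fell (13.9%), with a median change over all genes of 0.01. These shares are the background for every list below, where counts are of calls against the mean of the controls. Against both controls singly 475 genes rose and 781 fell. List counts against both controls singly were the same or smaller in every list. Changes beyond 1 in size against both controls, were those of 9 probes upward and 50 downward.

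**Figure D1:**
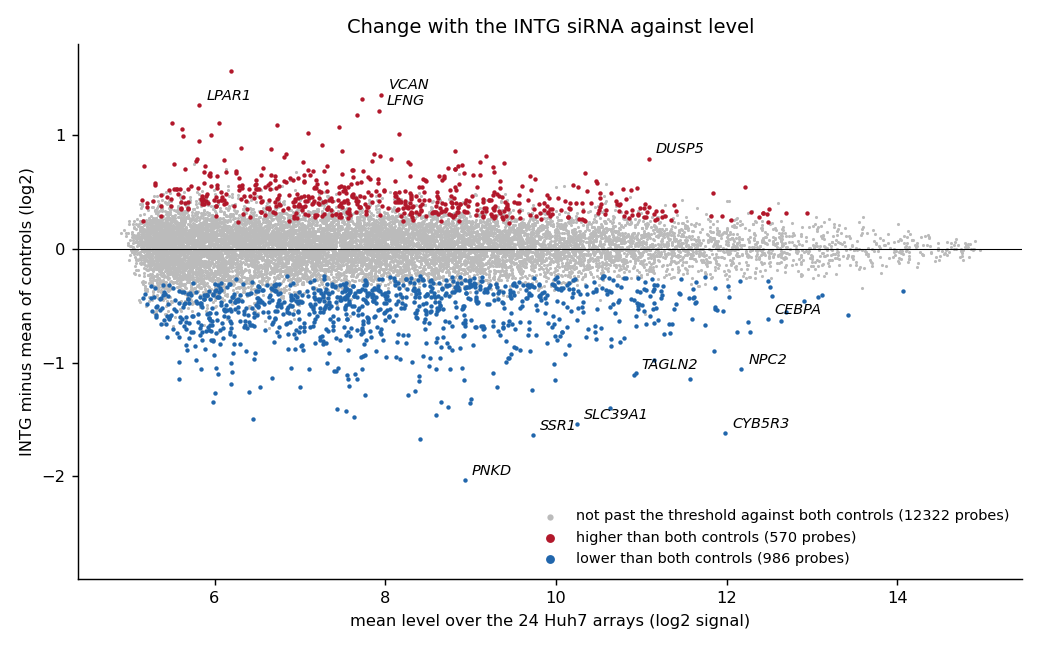
Change with the INTG siRNA against the mean of the controls (log2, vertical axis) by mean level over the 24 Huh7 arrays (log2 signal, horizontal axis), 1 point per probe tested. Red points (570 probes) were higher and blue points (986 probes) lower than both controls at an adjusted p under 0.05. PNKD has the deepest fall of a gene (-2.04) and VCAN the highest rise (1.35).

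The deepest falls were of genes with varied roles. PNKD, named for the paroxysmal movement disorder its mutations cause, read 9.65, 9.84, 9.29 and 9.84 with NC1 and 9.56, 9.88, 9.25 and 9.57 with NC2 in experiments 1 to 4, against 7.99, 7.63, 6.73 and 7.95 with INTG. The groups did not overlap, and the gap between INTG and the controls was many times that between the controls. The fall was 2.04 on the log2 scale (SE 0.127, adjusted p = 1.24e-05 in limma with Benjamini-Hochberg adjustment), a 4.1-fold lower level, and its 95% interval ran from -2.32 to -1.76. A second PNKD probe, annotated to the same gene, read -0.11 (adjusted p = 0.345).

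SSR1, the alpha subunit of the translocon-associated protein complex that helps new secretory proteins enter the endoplasmic reticulum, read 10.33, 10.23, 10.24 and 10.29 with NC1, 10.40, 10.24, 10.23 and 10.24 with NC2 and 9.25, 8.80, 8.19 and 8.32 with INTG. The 8 control values lay within a narrow band, and every INTG value was below it. The fall was 1.64 (SE 0.127, limma, Benjamini-Hochberg adjusted p = 1.96e-05). CYB5R3, the NADH-dependent reductase of cytochrome b5, read 12.20, 12.34, 12.58 and 12.78 with NC1, 12.35, 12.32, 12.80 and 12.85 with NC2 and 10.96, 10.49, 10.63 and 11.53 with INTG. The first probe fell by 1.62 (adjusted p = 1.27e-05 in limma with Benjamini-Hochberg adjustment, SE 0.117) and the second by 1.67, and INTG did not overlap the controls. SLC39A1, the plasma membrane zinc importer ZIP1, read 10.80, 10.77, 10.55 and 10.89 with NC1, 10.98, 10.70, 10.52 and 10.83 with NC2 and 9.58, 9.11, 8.89 and 9.28 with INTG. It fell by 1.54 (adjusted p = 2.83e-06 in limma with Benjamini-Hochberg adjustment, SE 0.0732), with a range over experiments of -1.65 to -1.31 and no overlap between INTG and the controls.

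The other 11 of the 15 leading falls lay between -1.49 and -1.25. They include MAP2K3 (-1.43), a kinase that activates p38, NPTX2 (-1.39), a secreted pentraxin, YOD1 (-1.35), a deubiquitinase, UBE2Q1 (-1.25), a ubiquitin-conjugating enzyme, TCF3 (-1.28), a basic helix-loop-helix factor, and PKIA (-1.28), an inhibitor of protein kinase A. NDRG3 (-1.49), CCDC32 (-1.41), PRICKLE4 (-1.40), TTPAL (-1.35) and AGAP3 (-1.35) complete the set. Second probes of NDRG3 (-1.48), TTPAL (-1.11) and PKIA (-0.55) fell as well. Of the other probes of MAP2K3, 1 was not well above background on any INTG array and was at least 1.21-fold lower (limma, Benjamini-Hochberg adjusted p = 0.00124), and 1 was detected on 2 of 8 INTG arrays. AGAP3, a GTPase-activating protein for Arf, was not well above background on any of the 8 INTG arrays with the probe named, which puts it at least 1.86-fold lower (limma, Benjamini-Hochberg adjusted p = 0.000105), while the brighter of its probes read 0.12. For NDRG3 the dimmer probe, which is the one named, was above background on 4 of 8 arrays of INTG.

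**Figure D2:**
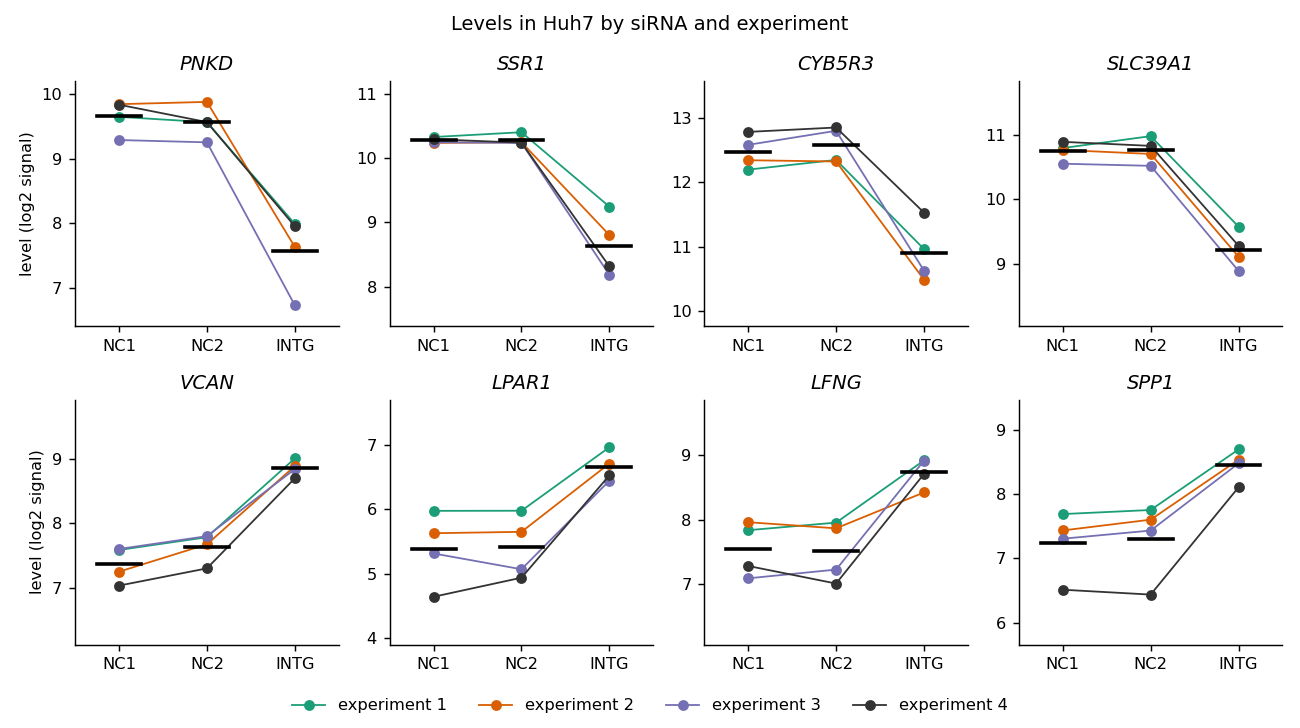
Levels (log2 signal, vertical axes, each spanning the same number of units) of 8 leading genes by siRNA, with 1 line per experiment and a bar at the group mean over 4 experiments. INTG values lie below both controls for PNKD, SSR1, CYB5R3 and SLC39A1 and above both for VCAN, LPAR1, LFNG and SPP1 in all 4 experiments.

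The leading rises were smaller than the leading falls, from 0.77 to 1.35, and of genes with varied roles. VCAN, the matrix proteoglycan versican, read 7.59, 7.25, 7.60 and 7.03 with NC1, 7.79, 7.67, 7.80 and 7.30 with NC2 and 9.01, 8.89, 8.84 and 8.70 with INTG. No control value reached the lowest INTG value. The rise was 1.35 (SE 0.0739, adjusted p = 5.02e-06 in limma with Benjamini-Hochberg adjustment), or 2.56-fold, and its 95% interval ran from 1.19 to 1.52. SPP1, the secreted integrin ligand osteopontin, read 7.69, 7.43, 7.31 and 6.52 with NC1, 7.75, 7.60, 7.43 and 6.44 with NC2 and 8.69, 8.53, 8.47 and 8.10 with INTG, a rise of 1.18 (SE 0.0989, limma, Benjamini-Hochberg adjusted p = 2.81e-05) with the larger part of the control spread in experiment 4. Its second probe rose by 1.32.

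LPAR1, a receptor for lysophosphatidic acid, read 5.97, 5.63, 5.31 and 4.64 with NC1, 5.97, 5.65, 5.07 and 4.94 with NC2 and 6.96, 6.71, 6.44 and 6.52 with INTG. It was detected on 4 of 8 arrays with each control and on 8 of 8 with INTG, so its fold of 2.4 rests in part on values near background. LFNG, the glycosyltransferase lunatic fringe that modifies Notch receptors, read 7.84, 7.96, 7.09 and 7.28 with NC1, 7.95, 7.87, 7.23 and 7.01 with NC2 and 8.92, 8.42, 8.91 and 8.71 with INTG. The INTG values were higher throughout, but the change ran from 0.51 in experiment 2 to 1.76 in experiment 3 (mean 1.21, SE 0.162, limma, Benjamini-Hochberg adjusted p = 0.00045). The other leading rises were SPTSSB (1.11), a small subunit of serine palmitoyltransferase, AKR1C3 (1.11), a steroid-reducing aldo-keto reductase, TSPAN12 (1.09), a tetraspanin of Norrin and Frizzled signalling, HLA-DMB (1.05), a chain of the class II peptide loader, and NT5E (1.02), the ectonucleotidase CD73. TNFRSF11B (1.01), which encodes osteoprotegerin, PTGER4 (1.00), a prostaglandin E2 receptor, FAM43A (0.94), OSBPL10 (0.91), an oxysterol-binding protein relative, NEU4 (0.86), a sialidase, and LRRN1 (0.77) followed. Of the 8 arrays of each control, AKR1C3 was above background on 1 with NC1 and 2 with NC2 and HLA-DMB on 4 and 5, so their sizes are less certain. With detection required on all arrays, 8 of the 15 leading rises were kept. SPTSSB, PTGER4, FAM43A and LRRN1 were also outside these 8. Over the processing alternatives the change of SPTSSB ran from 0.58 to 1.6 and that of PTGER4 from 0.52 to 1.58. FAM43A ran from 0.48 to 1.37 and LRRN1 from 0.37 to 1.3, so these sizes are less certain too. The AKR1C3 probe was tested only because it was detected on INTG arrays, where it was high, so that choice favoured a rise.

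Over the 15 leading falls the median change was -1.05 in experiment 1, where INTG and control arrays were equally bright, and -1.33, -1.70 and -1.50 in experiments 2 to 4. For 11 of the 15 the smallest change was that of experiment 1. Over the 15 leading rises the medians were 0.951, 0.806, 1.14 and 1.39, with 8 of the smallest values in experiment 1 and 6 in experiment 2. The mean signal of each array, taken as a covariate, lies close to the siRNA term in experiments 2 to 4. With it 15 of the 15 falls and 13 of the 15 rises passed, against 521 probes over all (163 up and 358 down). These leading genes were chosen on the same arrays for their change, so their passing follows in part from the choice. The brightness covariate moved the share of falls among calls from 53.7% to 68.7%, and leaving out the block moved it to 76.6%. The count over all probes was 1766 without experiment 4.

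**Figure D3:**
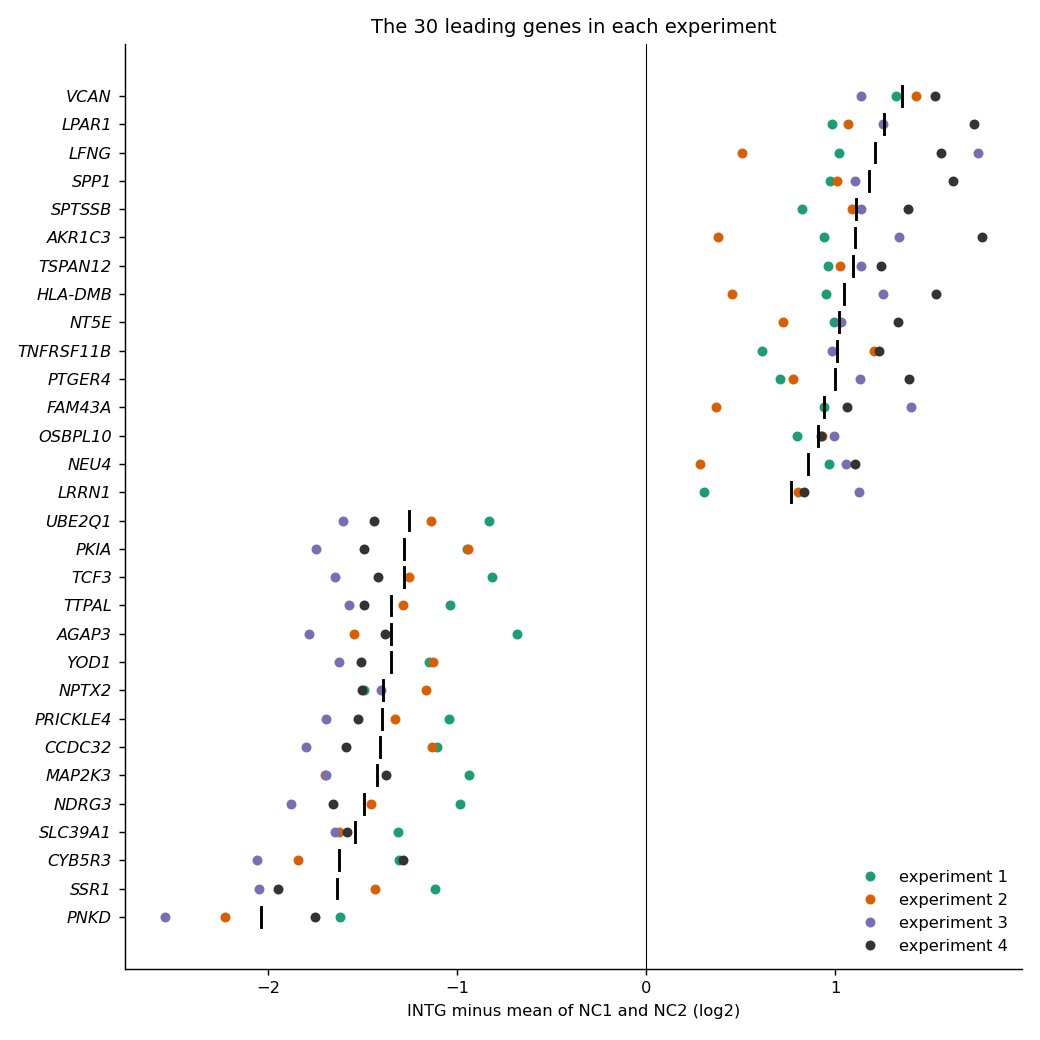
Change of the 30 leading genes (INTG minus the mean of the controls, log2, horizontal axis) in each of the 4 experiments, with a bar at the mean. Every fall lies left of 0 and every rise right of 0 in all 4 experiments, as the choice of the genes requires, and the spread between experiments is widest for AKR1C3, LFNG and AGAP3.

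Among the brightest 10 percent of probes, with a mean level of at least 10.78, the falls were again larger than the rises. NPC2, the lysosomal cholesterol-binding protein, read 12.29, 12.53, 12.43 and 12.75 with NC1, 12.37, 12.54, 12.52 and 12.77 with NC2 and 11.43, 11.32, 11.30 and 11.82 with INTG, a fall of 1.06 (SE 0.0695, limma, Benjamini-Hochberg adjusted p = 1.27e-05). TAGLN2 (-1.11), an actin-binding transgelin, ATP6V1F (-1.09), a subunit of the proton pump of lysosomes and endosomes, SLC35B1 (-0.98), an ATP transporter of the endoplasmic reticulum, and LASP1 (-0.90), an actin-associated adaptor, fell with it. The rises among these probes were DUSP5 (0.79), TM4SF1 (0.54), a tetraspan surface protein, TEAD2 (0.53), a transcription factor of the Hippo pathway, MMD (0.52) and UNG (0.44), the uracil-DNA glycosylase of base excision repair. Of 29 measured lysosomal genes 4 fell (13.8%, near the 13.9% of all genes) and 0 rose (median -0.05). LAMP1, a main protein of the lysosomal membrane, fell by 0.74 and ASAH1, acid ceramidase, by 0.41. The ASAH1 call was lost when any 1 experiment was left out, with a change of -0.23 without experiment 3, and in 12 of 18 alternatives in all, while the brightly read lysosomal genes PSAP (0.04, adjusted p = 0.672) and SCARB2 (0.00, adjusted p = 0.986) did not pass the test.

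Metallothionein genes and some zinc transporters were lower with INTG. Metallothioneins are small cysteine-rich proteins that buffer zinc and copper, and their genes are induced by the zinc-sensing factor MTF1 through metal response elements. Of 8 measured genes of this list 7 fell and 0 rose, with a median of -0.53 against 0.01 over all genes. Of these, 4 fell against both controls singly. MT2A read 11.75, 12.54, 12.37 and 10.64 with NC1, 11.78, 12.45, 12.29 and 10.55 with NC2 and 11.30, 11.37, 12.003 and 10.06 with INTG. INTG was lowest within every experiment, but the values of the 3 groups overlapped across experiments because experiment 4 was low with every siRNA. The fall was 0.61 (SE 0.107, limma, Benjamini-Hochberg adjusted p = 0.00246) and ran from -1.13 in experiment 2 to -0.33 in experiment 3. MT1M (-0.60), MT1X (-0.57) and MT1G (-0.53) fell next, and MTF1 itself read -0.25 (adjusted p = 0.171). MT1G was not called without experiment 2 (-0.35), 3 or 4. MT1X differed less from NC2 (-0.30) than from NC1 (-0.85) and was not called against both. The MT1 genes are near-identical copies, and how far a probe for 1 reads another was not tested.

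The list medians of the metallothioneins were -0.36, -0.95, -0.42 and -0.43 in experiments 1 to 4. With the brightness covariate 0 of the 8 passed (median -0.48), and without the experiment as a block 0 passed. Of 17 measured zinc transporters 6 fell and 0 rose (median -0.10). Besides SLC39A1 they include the importers SLC39A3 (-0.97), whose brighter probe read 0.01, and SLC39A14 (-0.38), and the exporter SLC30A10 (-0.53, or -0.31 without experiment 3), which also carries manganese. SLC30A7 (-0.21, adjusted p = 0.129) and SLC30A9 (-0.04, adjusted p = 0.775), both of internal membranes, did not pass. With the brightness covariate 2 transporters passed.

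Promoter windows of 2 metallothionein genes and of calnexin are shown. In the metallothionein list 7 of 8 measured genes fell, and in the chaperone list of calnexin 10 of 25 fell and 1 rose. Whether a shared promoter element has a part in these changes was not tested. Each is a window of 300 bases around the start of the gene in RefSeq (GRCh38.p14, plus strand). Capitals in the metallothionein windows mark the core of the metal response element, TGCACNC or TGCGCNC on either strand with overlapping matches joined, and in the calnexin window the endoplasmic reticulum stress element, CCAAT and CCACG with 9 bases between them, on either strand.
MT2A, chr16:56608334-56608633: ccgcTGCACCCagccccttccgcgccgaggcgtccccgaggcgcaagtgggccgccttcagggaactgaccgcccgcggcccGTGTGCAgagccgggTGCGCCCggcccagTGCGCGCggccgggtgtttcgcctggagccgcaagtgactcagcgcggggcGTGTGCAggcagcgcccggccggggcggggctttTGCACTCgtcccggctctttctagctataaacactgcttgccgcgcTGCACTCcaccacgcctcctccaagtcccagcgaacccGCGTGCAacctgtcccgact
MT1X, chr16:56682220-56682519: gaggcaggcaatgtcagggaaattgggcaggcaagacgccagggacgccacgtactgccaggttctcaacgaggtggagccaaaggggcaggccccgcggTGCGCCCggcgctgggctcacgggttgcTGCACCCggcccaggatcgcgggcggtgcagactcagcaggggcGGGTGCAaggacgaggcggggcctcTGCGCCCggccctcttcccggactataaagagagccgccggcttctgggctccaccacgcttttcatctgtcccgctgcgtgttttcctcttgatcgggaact
CANX, chr5:179698717-179699016: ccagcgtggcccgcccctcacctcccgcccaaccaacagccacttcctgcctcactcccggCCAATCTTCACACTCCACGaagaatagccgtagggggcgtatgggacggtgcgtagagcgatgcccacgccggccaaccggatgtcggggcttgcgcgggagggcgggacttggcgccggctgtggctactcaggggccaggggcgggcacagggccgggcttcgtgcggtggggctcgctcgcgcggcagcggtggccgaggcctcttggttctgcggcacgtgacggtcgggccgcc
The MT2A window held 8 matches and the MT1X window 4, against at least 4 in 0.601% of all 35116 windows and at least 1 in 29.6%. MT1H, also on chromosome 16, held 8 matches, MT1B and MT4 held 3 each, and the MTF1 window held 0. At least 3 matches occurred in 2.3% of all windows. Windows of MT1M and MT1G were not among those read. The stress element occurred in 0.0769% of all windows. Among the chaperone genes described next, CANX had 1 match, the same site in 3 overlapping windows, and 0 in a further window. HSP90B1 had 2 matches, and XBP1 had 1 in a window and 0 in another. The windows of SDF2L1, HYOU1 and EDEM1 had 0. A match is a description of these letters and not a measured binding site.

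Chaperones and quality control genes of the endoplasmic reticulum are raised by the cell when unfolded proteins collect there. Of 25 measured, 10 fell, 1 rose and 14 did not pass, with a median of -0.20. Against both controls singly 7 fell and 0 rose. CANX, the lectin chaperone calnexin, read 9.94, 9.74, 9.57 and 9.65 with NC1, 9.89, 9.68, 9.74 and 9.90 with NC2 and 9.31, 9.16, 8.83 and 8.92 with INTG. The groups did not overlap, and the fall was 0.71 (SE 0.0755, limma, Benjamini-Hochberg adjusted p = 0.000103), with -0.60 for the second probe. EDEM1 (-0.91), which passes misfolded glycoproteins on for degradation, SDF2L1 (-0.53) and HYOU1 (-0.43), a chaperone of the Hsp70 class, were also lower than both controls.  HSP90B1 (-0.21, adjusted p = 0.0509) and XBP1 (-0.09, adjusted p = 0.298) did not pass. With the brightness covariate 3 of the 25 fell and 0 rose, with a median of -0.20.

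Few other genes of the translocon and of signal peptide processing changed like SSR1. Of 24 measured, 6 fell and 2 rose (median 0.01), with SSR1 itself among the falls, SSR2 at -0.31 (its brighter probe read -0.00219, adjusted p = 0.989), SRP19 at -0.32 and SRP9 at 0.31. SEC61A1, the channel itself, read -0.16 (adjusted p = 0.0756), and SRP14 read 0.03 (adjusted p = 0.735). The count of 8 was 2 without experiment 4, 3 without experiment 2 and 4 without experiment 1. Of 20 genes of N-linked glycosylation 2 fell and 0 rose (median -0.08), or 0 without experiment 2, and 0 passed against both controls singly. Among 19 genes of the amino acid response driven by ATF4, 4 fell and 1 rose (median 0.00). SLC7A5, a leucine transporter, fell by 0.86 with every INTG value (10.19, 10.26, 10.48 and 9.39) below the controls of the same experiment, TRIB3 fell by 0.51 and PHGDH, the first enzyme of serine synthesis, by 0.46, and NUPR1 rose by 0.78.

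Liver secretory genes and the factors that drive them were lower in part. Of 19 acute phase and other plasma protein genes 9 fell and 1 rose (median -0.19). SAA4, a constitutive serum amyloid A, read 7.83, 7.93, 8.14 and 7.64 with NC1, 7.52, 7.65, 7.84 and 7.49 with NC2 and 6.81, 6.45, 6.68 and 6.80 with INTG. All 4 INTG values lay under the lowest control value, and the fall was 1.07 (SE 0.0962, limma, Benjamini-Hochberg adjusted p = 3.94e-05). HAMP, the iron hormone hepcidin, fell by 0.68 (-0.46 against NC1 and -0.89 against NC2), and haptoglobin (HP) by 0.58 and its near copy HPR by 0.52, whose probes may share signal. ALB (0.09, adjusted p = 0.419) and transferrin (TF, 0.08, adjusted p = 0.393) did not pass. With the brightness covariate 5 fell and 0 rose.

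Of 17 complement genes 3 rose and 1 fell (median -0.03), and without experiment 2 or 3 the calls numbered 2. Against both controls singly 1 rose and 1 fell. MBL2, the mannose-binding lectin that starts the lectin pathway, read 6.86, 6.11, 6.75 and 7.15 with NC1, 6.39, 5.97, 6.45 and 6.77 with NC2 and 7.14, 7.04, 7.50 and 7.88 with INTG. It was higher than both controls within each experiment, by 0.84 (SE 0.0846, limma, Benjamini-Hochberg adjusted p = 7.59e-05). CFB rose by 0.29 and C1S by 0.24, and MASP1, the protease that partners MBL2, fell by 0.44 with the probe named while its other 3 probes read 0.28, 0.29 and, for the brightest, 0.44. Of 18 coagulation genes 5 fell and 1 rose (median -0.10), among them KNG1 (-0.42), F12 (-0.41), SERPINF2 (-0.35) and F10 (-0.34), and 0 passed with the brightness covariate. Of 19 lipoprotein genes 7 fell and 0 rose (median -0.19), with APOC3 at -0.53, ABCA1 at -0.33 and APOB at -0.28. That count was 3 or 4 with any 1 experiment left out and 0 with the brightness covariate.

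Of 14 hepatocyte transcription factors 5 fell and 0 rose (median -0.07). CEBPA, a factor of hepatocyte differentiation, read 12.79, 12.95, 12.45 and 12.65 with NC1, 12.80, 13.03, 12.37 and 12.46 with NC2 and 12.26, 12.53, 11.60 and 11.88 with INTG. Each INTG value was below both controls of its experiment, with a fall of 0.62 (SE 0.0731, limma, Benjamini-Hochberg adjusted p = 0.000193). GATA4 (-0.55), ONECUT1 (-0.47) and FOXA3 (-0.36) fell too, FOXA2 read 0.13 (adjusted p = 0.301) and CEBPB read 0.00 (adjusted p = 0.977). The count was 3 without experiment 2 and 2 with the brightness covariate.

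The metabolic lists differed in how many genes passed. Of 17 fatty acid synthesis genes 4 fell and 0 rose (median -0.07), among them DGAT1 (-0.42), GPAM (-0.37) and ACLY (-0.36), while FASN (-0.05, adjusted p = 0.621) and SCD (-0.06, adjusted p = 0.516) did not pass, and 2 fell without experiment 4. Of 18 cholesterol synthesis genes 2 rose and 1 fell (median 0.06), and 0 passed without experiment 1. Of 21 genes of gluconeogenesis, the urea cycle and amino acid breakdown 4 fell and 1 rose (median -0.03), or 2 and 1 without experiment 3 or 4. TDO2, the liver enzyme that opens tryptophan, fell by 1.21, with a range over experiments from -2.39 to -0.73 and detection on 6 of 8 INTG arrays. Of 7 aldo-keto reductases 3 rose and 0 fell (median 0.19), AKR1C3, AKR1C4 (0.51) and AKR1C2 (0.38), which are close copies whose probes may share signal, and 0 passed with the brightness covariate. The probe of AKR1C3 was tested only through its detection with INTG. Of 17 genes of xenobiotic metabolism and transport 5 rose and 2 fell (median 0.06), with 2 and 2 without experiment 2 and 2 and 0 with the brightness covariate. Against both controls singly 2 rose and 1 fell. In this list CYP1A1 (0.58) and AHR (0.40), the receptor that induces it, rose, and SULT2A1, a steroid sulfotransferase, fell by 0.56.

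**Figure D4:**
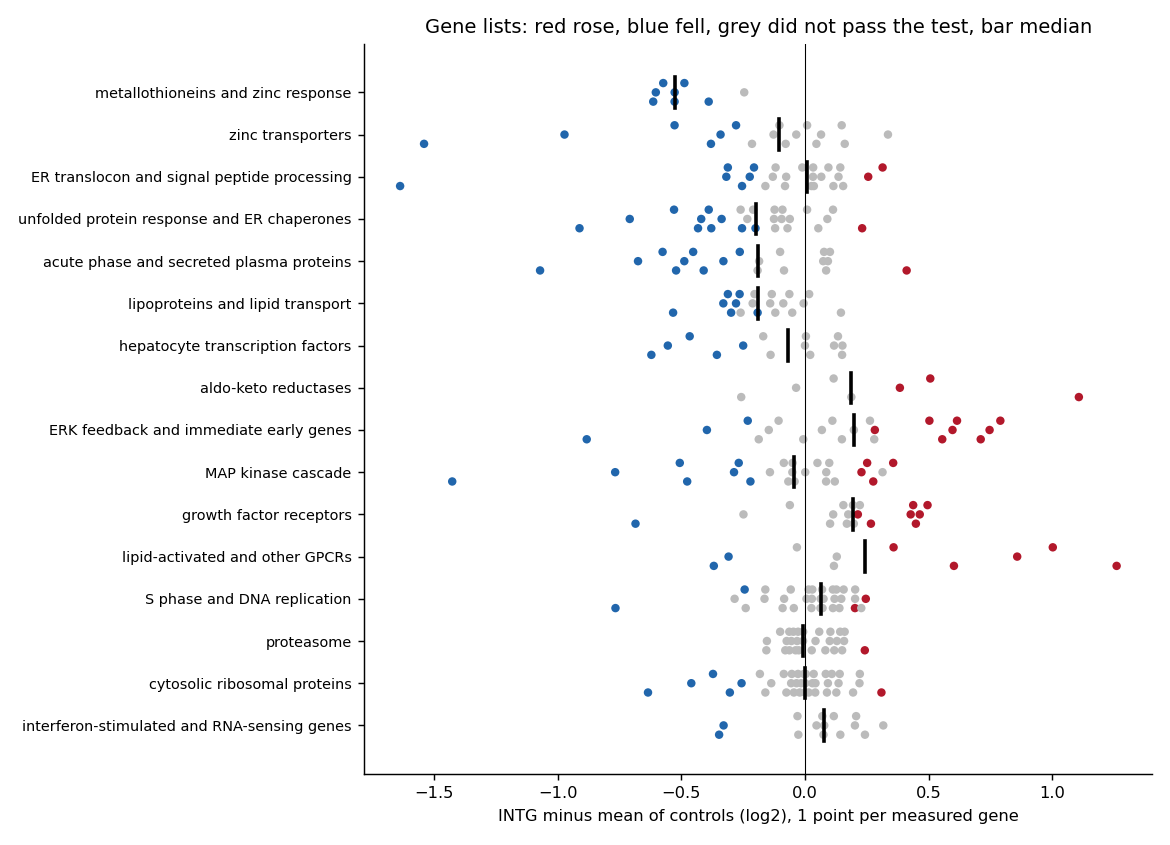
Change of each measured gene (INTG minus the mean of the controls, log2, horizontal axis) in 16 of the gene lists, 1 point per gene with red for genes that rose, blue for genes that fell and grey for genes that did not pass the test, and a black bar at the list's median. The metallothioneins lie to the left of 0 throughout with a median of -0.53, and the proteasome lies around 0 with a median of -0.01.

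ERK activity induces its own inhibitors, the Sprouty and SPRED proteins and the dual-specificity phosphatases. Of 21 genes of a list that joins this feedback with immediate early genes, 8 rose, 3 fell and 10 did not pass. The median was 0.20 against 0.01 over all genes. DUSP5, a nuclear phosphatase of ERK, read 11.42, 11.14, 10.51 and 10.59 with NC1, 11.19, 10.97, 10.51 and 10.27 with NC2 and 12.02, 11.91, 11.36 and 11.18 with INTG. INTG was higher within every experiment, while values overlapped across experiments. The rise was 0.79 (SE 0.0652, limma, Benjamini-Hochberg adjusted p = 2.59e-05) and nearly even over experiments, from 0.71 to 0.85. SPRED1 (0.75) and SPRY4 (0.71) were above both controls in all 4 experiments. FOSB, an immediate early gene, went the other way and was detected on 0 of 8 INTG arrays, at least 1.58-fold lower (limma, Benjamini-Hochberg adjusted p = 3.67e-05), and MYC (0.11, adjusted p = 0.263) did not pass. The list medians were 0.19, 0.19, 0.43 and 0.11 in experiments 1 to 4, and with the brightness covariate 6 rose and 1 fell.

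Of 18 growth factor receptor genes 7 rose and 1 fell (median 0.20), or 3 and 1 against both controls singly. The rises against the mean include ACVR1 (0.46), a BMP type I receptor, TGFBR3 (0.45), the betaglycan co-receptor, and MET (0.50), the hepatocyte growth factor receptor. MET was above background on 1 array with NC1 and 4 with NC2, of 8 each, so it was tested only through its detection with INTG. The rise of MET lay mostly on the side of NC1, as given below. FGFR4, the receptor through which FGF19 acts on hepatocytes, read -0.69 (limma, Benjamini-Hochberg adjusted p = 3.94e-05), and the brighter of its probes read -0.63. Without experiment 1, 4 rose and 1 fell, and with the brightness covariate 1 rose and 1 fell. Of 10 measured G protein-coupled receptors 5 rose and 2 fell (median 0.24). LPAR6 (0.86) and the angiotensin receptor AGTR1 (0.60) joined LPAR1 and PTGER4, F2R (0.13, adjusted p = 0.214) did not pass, and 4 rose with the brightness covariate. Of 24 MAP kinase genes 4 rose and 7 fell (median -0.05), or 0 and 4 against both controls singly. MAP2K3, MAPKAPK3 (-0.77), MAP3K11 (-0.51) and MAP3K3 (-0.48) were the largest of the falls, and with the brightness covariate 0 rose and 1 fell. Leaving out experiment 1 gave 2 rises and 4 falls, experiment 2 gave 1 and 6, and experiment 4 gave 1 and 4. MAP2K1 (0.12, adjusted p = 0.252) and MAPK3 (-0.09, adjusted p = 0.638) did not pass.

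Of 21 matrix genes 5 rose and 2 fell (median 0.07). Of 8 fibroblast and stellate cell markers 3 were measured, of which PDGFRB (0.44) and LUM (0.41) rose, neither past the threshold against both controls, and 5 (COL1A1, COL3A1, DCN, ACTA2 and THY1) were detected on 0 arrays. Their summed signal ran from 454.1 to 1102 with NC1, 569.9 to 1378 with NC2 and 641.2 to 1512 with INTG, and their part in the matrix result was not tested. Besides VCAN and SPP1 the named members were CCN1 (0.50) and THBS1 (-0.42), and GPC3, the glypican of hepatoma cells, read -0.04 (adjusted p = 0.764). Of 28 adhesion and actin genes 4 rose (14.3%) and 5 fell (17.9%, median -0.06), against 12.2% and 13.9% of all genes. ITGAV, the integrin subunit that binds osteopontin, rose by 0.73 (limma, Benjamini-Hochberg adjusted p = 8.7e-05), while TAGLN2, vinculin (VCL, -0.69) and the integrin-linked kinase ILK (-0.45) fell. Without experiment 4, 1 rose and 4 fell. Of 25 Notch, Wnt and Hedgehog genes 4 rose and 2 fell (median -0.01), with FZD4, the Frizzled receptor that works with TSPAN12, at 0.47. Of 22 TNF receptor and NF-kappaB genes 4 rose (18.2%) and 2 fell (9.09%, median 0.05), and without experiment 4, 1 rose and 1 fell. In this list CXCL8 (interleukin-8) read 0.51 and CHUK, an IkappaB kinase, -0.37.

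Cell cycle genes were called in both directions. The S phase, the G2 and mitosis and the p53 lists had smaller shares of rises and of falls than all genes (12.2% and 13.9%). Of 18 genes of G1 cyclins and their partners 2 rose and 4 fell (median 0.05). CDKN2B, an inhibitor of CDK4 and CDK6, rose by 0.76, CDK6 fell by 0.56 and CCND3 by 0.41, and CDK4 read 0.07 (adjusted p = 0.481). Of 32 S phase genes 2 rose and 2 fell (median 0.06), with thymidine kinase TK1 at -0.77, and of 34 genes of G2 and mitosis 2 rose and 4 fell (median -0.07), with KIF20A at -0.51 and MKI67 at -0.51. Of 18 p53 targets 1 rose and 2 fell (median 0.08). Without experiment 1, 0 rose and 3 fell among the G2 and mitosis genes, and the S phase calls numbered 1 without experiment 2 or 4 and 2 without experiment 3. Of p53 targets 0 passed without experiment 4.

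Of 14 measured interferon-stimulated and RNA-sensing genes, which double-stranded RNA can induce, 0 rose and 2 fell (14.3%, near the 13.9% of all genes, median 0.08). These were ISG15, by 0.35, and ISG20, by 0.33, neither past the threshold against both controls singly. IFITM3 read 0.32 (limma, Benjamini-Hochberg adjusted p = 0.0555). The falls numbered 0 without experiment 2 or 4, and without experiment 2, 2 genes rose. Of 14 genes of the RNA interference machinery 2 rose (14.3%) and 1 fell (7.14%, median 0.08), with 0 calls without experiment 1 or 4. The slicer AGO2 read 0.08 (limma, Benjamini-Hochberg adjusted p = 0.614). Of 28 proteasome genes 1 rose (3.57%) and 0 fell (median -0.01). Among 37 cytosolic ribosomal protein genes 1 rose (2.7%) and 5 fell (13.5%, near the 13.9% of all genes, median 0.00), with RPLP1 at -0.63. The proteasome call was lost when any 1 experiment was left out. Of 32 nuclear pore and transport genes 4 fell (12.5%, near the 13.9% of all genes) and 0 rose (median 0.05). Among these, KPNA3, an importin alpha, fell by 1.21 and SEH1L, a subunit of the pore's Y complex, by 1.10. Of the other SEH1L probes the brightest read -1.06 and passed, and another read -0.17 (limma, Benjamini-Hochberg adjusted p = 0.0901). The count was 2 without experiment 2 or 4 and with the brightness covariate. Of 12 housekeeping genes TUBB, a beta-tubulin, fell by 0.73 (limma, Benjamini-Hochberg adjusted p = 3.8e-05), while ACTB (-0.12, adjusted p = 0.16) and GAPDH (-0.07, adjusted p = 0.446) did not pass.

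Beside the target on chromosome 9, 8 neighbouring genes were measured, of which 1 rose and 2 fell. PHF19, a Polycomb-associated reader of histone H3, read 7.56, 7.24, 8.01 and 7.24 with NC1, 7.49, 7.19, 8.31 and 7.32 with NC2 and 6.77, 6.53, 7.05 and 6.48 with INTG. INTG was under both controls in each experiment and under every control value, with a fall of 0.84 (SE 0.0829, limma, Benjamini-Hochberg adjusted p = 6.61e-05). Of the other PHF19 probes 1 fell by 0.77 and 1 read -0.10. STOM rose by 0.45 with the probe named, while its brighter probe read 0.06 (adjusted p = 0.538). FBXW2 fell by 0.29, and C5, at a level of 11.38, read 0.12 (SE 0.0693, limma, Benjamini-Hochberg adjusted p = 0.256). CDK5RAP2 lay just above the threshold (-0.21, adjusted p = 0.0502). Of 10 measured genes of Polycomb repressive complex 2 and its partners, PHF19 fell, MTF2, a related accessory protein, rose by 0.42, and SUZ12 (0.03, adjusted p = 0.823) and EZH2 (0.13, adjusted p = 0.296) did not pass.

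The controls differed from each other at 66 of the 13878 probes (0.476%), or 3 to 12 with any 1 experiment left out, and some changes against their mean lay mostly on the side of 1 control. MPRIP read 0.07 against NC1 and 1.25 against NC2, with its other probes at 0.28 and -0.01 against the mean of the controls, EIF5A2 -0.06 and 0.79, and FXR1, an RNA-binding protein, 0.16 and 0.97. PIP4K2A, a phosphoinositide kinase, read 0.90 against NC1 and 0.19 against NC2, and MET 0.88 and 0.11. E2F2, a cell cycle factor, was lower with INTG than with either control, but by 0.47 against NC1 and 1.25 against NC2, and DEFB1 read -0.35 and -1.12. H2BC12, a histone H2B gene, was lower by 1.72 and 0.92 against NC1 and NC2. For the 30 leading genes, by the rule that named them, both contrasts were past the threshold.

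Among the other named genes past the threshold, SSR2, F10, APOB, EIF5A2, FBXW2, SRP19, CFB, C1S, SERPINF2, APOC3, GATA4, ISG15, ISG20, CXCL8, CCN1, THBS1, MET, PDGFRB, ABCA1 and GPAM lost the call when at least 1 of the experiments was left out. The adjusted p (limma, Benjamini-Hochberg) then ran from 0.0503 for C1S to 0.17 for CFB. Another probe did not pass for GPAM (-0.21), ILK (-0.28), ONECUT1 (-0.19) and MBNL3 (-0.47). Further MBNL3 probes passed, the brightest at -0.62 and the dimmest at -0.44.

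The same contrast was made in THP1, and the difference between the lines was tested in a joint fit at the 11542 probes measured in both. It passed at 300 probes (2.6%). Of the leading falls 13 were measured in THP1, where their changes ran from -0.83 to -0.43, and 8 of the 13 differed between lines. These genes were chosen for their change in Huh7, so a smaller change in another line follows in part from the choice. For SLC39A1 the change was -0.59 in THP1 and the difference -0.95 (SE 0.0988, limma, Benjamini-Hochberg adjusted p = 0.000825), and for PNKD it was -0.79 with a difference of -1.25 (SE 0.168, adjusted p = 0.0016). Of the leading rises 6 were measured in THP1, from -0.51 to 0.31, and 4 of them differed. PTGER4 read -0.13 there (difference 1.13, SE 0.127, adjusted p = 0.000825) and LFNG -0.51 (difference 1.72, SE 0.267, adjusted p = 0.00437), and LPAR1 read -0.27 without passing (adjusted p = 0.0525). Outside the leading genes, IVNS1ABP and DAB2 rose in Huh7 (0.81 and 0.82) with THP1 at -0.43 and -0.36, and MBNL3 (-1.15), AMMECR1 (-1.21) and SLC35A4 (-1.16) fell in Huh7 with THP1 at 0.09, -0.03 and -0.19. The INTG arrays of THP1 experiment 4 were dim, and without them 523 probes passed. The count was 23 without experiment 3, 44 without experiment 1 and 63 without experiment 2.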

How the data were processed

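Total RNA from 24 Huh7 cultures was labelled and hybridised to Illumina bead arrays. The deposited table holds the authors' non-normalized bead intensity and a detection p-value for each probe and array, per the file headers, and a second deposited table holds the authors' processed intensity values, used as an alternative. Per the submitters' processing notes, the tools were limma and lumi, for which the notes list no version. Of 48803 probes listed, 28098 carried 1 gene symbol, 13 several and 20692 none in the platform annotation, and 8 blank probes were left out.

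Background was corrected and arrays were quantile normalized over all 48 arrays of the series (neqc, limma 3.58.1 in R 4.3.3, offset 16). Probes with a detection p-value under 0.01 on at least 8 of the 24 Huh7 arrays were tested (13878, of which 11925 with a gene and 1953 without). The 2 wells of an experiment were averaged, and limma was fitted to the 3 siRNAs of Huh7 with the experiment as a block (6 residual degrees of freedom, eBayes, Benjamini-Hochberg adjustment over all probes tested). The pairing comes from the design text, which gives each experiment its own passage. Deviations of the groups of an experiment correlated at 0.753 to 0.888. A gene was read with its probe of smallest p. The number of arrays limits the precision.

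The comparison and the gene lists were chosen with earlier results of these data known. Genes are named by a rule: genes next to the target, the 15 highest rises and 15 deepest falls, ranked by the smaller of the changes against NC1 and NC2, among genes past the threshold against the mean and against each control with every experiment placing INTG above, or every experiment placing it below, NC1 and NC2 alike, up to 5 genes per direction among the brightest 10 percent of probes, up to 4 called and 2 uncalled members of each list, and up to 4 and 5 genes per direction that differed most between the controls and between the cell lines. A probe below background on all arrays of a group gives a bound: the mean of the brighter group was set against the lowest signal well above background on each array of the dimmer one. Alternatives were other blocks, wells as separate arrays, other background, scaling and filters, the authors' processed values, array weights, mean signal as a covariate, each slide alone, the brightest probe and leaving out each experiment.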

Additional observations from a re-analysis of the deposited data

Results flagged for a closer look

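In 8 of 169 named genes, 1 of the 4 experiments stood apart from the other 3 in the change with INTG against the controls, where chance gives about 1 in 20 (Dixon's test of the gap to the nearest value). NEU4 changed by 0.286 in experiment 2, against 0.97 to 1.11 in the others. TAGLN2 changed by -1.61 in experiment 4, against -0.984 to -0.888 in the others. SLC30A10 changed by -1.19 in experiment 3, against -0.345 to -0.285 in the others. F10 changed by -0.662 in experiment 2, against -0.259 to -0.186 in the others. FASN changed by -0.262 in experiment 2, against -0.00604 to 0.034 in the others. AKR1C2 changed by 0.146 in experiment 2, against 0.442 to 0.477 in the others. TDO2 changed by -2.39 in experiment 3, against -0.95 to -0.734 in the others. LYZ changed by 0.33 in experiment 1, against 0.596 to 0.633 in the others.

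Of 123 named genes with a test of the difference between the lines, 44 passed it (limma, joint fit, Benjamini-Hochberg adjustment). Over all probes measured in both lines 300 of 11542 passed (2.6%), and the named genes include those chosen for their change in Huh7 or for differing most between the lines, so the larger share follows in part from the choice. The change with INTG was lower in Huh7 than in THP1, by the log2 difference given, for PNKD (-1.25), MBNL3 (-1.24), AMMECR1 (-1.18), SSR1 (-1.14), SLC35A4 (-0.976), CCDC32 (-0.975), SLC39A1 (-0.948), PRICKLE4 (-0.938), TAGLN2 (-0.936), NPTX2 (-0.891) and SEH1L (-0.884). The same held, with smaller differences, for CYB5R3 (-0.796), FOSB (-0.792), EDEM1 (-0.783), UBE2Q1 (-0.764), MAPKAPK3 (-0.759), TK1 (-0.747), CANX (-0.719), PHF19 (-0.716), ATP6V1F (-0.681), TUBB (-0.655), SLC7A5 (-0.64), MT2A (-0.627), SDF2L1 (-0.579), MKI67 (-0.576), MT1X (-0.541), E2F2 (-0.541), ABCA1 (-0.54), CDK6 (-0.511), CEBPA (-0.506), LASP1 (-0.467), FBXW2 (-0.436) and CCND3 (-0.425). It was higher in Huh7 for SPRED1 (0.609), LYZ (0.845), ITGAV (0.85), NUPR1 (0.98), VCAN (1.08), SPRY4 (1.11), PTGER4 (1.13), DAB2 (1.17), NT5E (1.18), IVNS1ABP (1.24) and LFNG (1.72).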

How the results depend on the processing

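Without the replicate block of the experiment, 333 probes were called against the mean of the controls in place of 3089, 142 against both controls in place of 1556, 0 between the controls in place of 66 (266 at an unadjusted p under 0.05 in limma) and 1 between the lines in place of 300. With the slide as the only block the counts were 1132, 469, 12 and 58. With array brightness as a covariate they were 521, 199 and 14 in Huh7. The slide of experiments 1 and 2 alone gave 1217, 382, 0 and 46, and that of experiments 3 and 4 alone 817, 288, 0 and 0 (limma, 660 and 1162 between the controls and 1405 between the lines at an unadjusted p under 0.05). Wells as separate arrays gave 2615 against both controls and 405 between the controls. The latter count was 259 with duplicateCorrelation, 184 without background correction, 24 with the authors' values floored at 1, 164 for probes detected on all arrays and 237 with array weights. The line difference gave 508 for probes detected on all arrays, 649 with array weights and 523 without the 2 dim arrays of THP1 experiment 4. Leaving out 1 experiment gave 1766 to 2492 against the mean, 715 to 1061 against both controls, 3 to 12 between the controls and 23 to 277 between the lines. The cause of these changes was not tested, beyond the fewer samples that leaving out arrays entails. Of 3204 values of 169 named genes under the alternatives, 2846 kept their side of the threshold, 324 no longer passed, 31 newly passed and 3 reversed. Direction was not compared for values that passed neither in the main fit nor in the alternative, and some of these changed sign. The reversals came with the brightest probe of AGAP3 (0.12), SLC39A3 (0.0063) and MASP1 (0.44).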

Other observations

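Of the 3089 probes called against the mean of the controls, 327 carry no gene symbol in the platform annotation. The probe ILMN_1798663 had mean levels of 5.45 with NC1, 5.90 with NC2 and 7.23 with INTG, a rise of 1.56 (SE 0.171, n = 4 experiments, limma, Benjamini-Hochberg adjusted p = 0.000126), and was detected on 4, 7 and 8 of 8 arrays. The probe ILMN_1783156 had mean levels of 9.17 with NC1 and 7.62 with INTG, and against the mean of both controls a fall of 1.46 (SE 0.116, limma, Benjamini-Hochberg adjusted p = 2.1e-05) with detection on all 24 arrays. Both were chosen after their values were seen.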
